A study of Oryza sativa Indica Group with 8 samples.

Results

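ADP-glucose pyrophosphorylase (AGPase) turns glucose 1-phosphate and ATP into ADP-glucose, the glucosyl donor of starch synthesis, and is regarded as the main control point of that pathway. The enzyme is a tetramer of large subunits, which mostly set its regulation, and small subunits, which carry most of the catalysis. In leaves it works in the chloroplast, where starch is laid down by day and used at night. In the endosperm of cereals most of the activity lies in the cytosol and serves grain filling.

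The 6 rice AGPase loci were selected by their MSU identifiers from the 35961 loci of the deposited tables. They are the large subunit genes OsAGPL1 (LOC_Os05g50380), OsAGPL2 (LOC_Os01g44220), OsAGPL3 (LOC_Os03g52460) and OsAGPL4 (LOC_Os07g13980), and the small subunit genes OsAGPS1 (LOC_Os09g12660) and OsAGPS2 (LOC_Os08g25734). All 6 are in both tables. As background, OsAGPL3 is known as the leaf-type large subunit, OsAGPL2 as the cytosolic large subunit of the endosperm, and OsAGPL1 and OsAGPS1 as plastid subunits of young endosperm. OsAGPS2 gives a plastid small subunit of leaves, OsAGPS2a, and a cytosolic one of endosperm, OsAGPS2b, by alternative first exons. The RefSeq table lists 2 transcripts for AGPS2 and gives both names as synonyms of the gene, without linking either name to a transcript. A count per locus does not separate the leaf from the endosperm form. OsAGPL4 was assigned to neither tissue.

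RNA-seq was made from leaves of Guangluai 4 (GL, wild type in the labels) and of OE5, a line that overexpresses OsPRR37 in the same cultivar, with 2 libraries each. OsPRR37 is a repressor of the rice circadian clock, and the series asked about the part of DNA methylation in the control of its output genes. According to the study's text, GL itself carries a natural OsPRR37 allele without function, so overexpression is set against that allele and not against a functional one. Plants of either genotype were 15 days old, raised at 28°C with 14 h of light per day and a night of 10 h. The methods place the harvest of the topmost expanded leaves in the morning. OE5 is 1 transgenic line, so an effect of the line cannot be told apart from one of the transgene. The promoter of the transgene is not given in the sources used here, and the level of the overexpressed gene was not analysed here.

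The libraries held between 43423801 and 48284992 counts. For the least abundant member, OsAGPL1, the lowest count in a library was 65, which gives a counting error of 12.4% if counts are independent. It was at most 3.21% for the other 5 loci. Reads were paired, and each library held more counts than the read pairs that the paper reports for it. Both mates of a pair thus appear to have been counted. With each pair taken as a single observation, these errors are 17.5% and at most 4.54%. The tissue label was checked with locus lists compiled from general knowledge. The 13 leaf photosynthesis loci summed to between 159914 and 180715 TPM. Of 11 endosperm storage protein loci, 6 were in the table and summed to between 11.01 and 13.06 TPM, with 2 of them at 3 or fewer counts in every library. Of 3 root loci, 2 were in the table. One had at most 1 count, and the other, LOC_Os02g51110, was lower in OE5 at a log2 fold change of -0.75 (edgeR adjusted p = 0.0208). Its part in the AGPase values was not tested. In bulk leaves, fewer cells of a type and less RNA per cell cannot be told apart.

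The levels of the AGPase loci spanned more than 2 orders of magnitude, in the same order in all 4 libraries. Leaf-type OsAGPL3 and the shared small subunit OsAGPS2 stood far above the others. OsAGPL4, OsAGPS1 and OsAGPL2 formed a low middle group, and OsAGPL1 lay near 1 TPM or below it. Levels are compared as TPM, counts scaled to gene length and to the library.

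**Figure D1:**
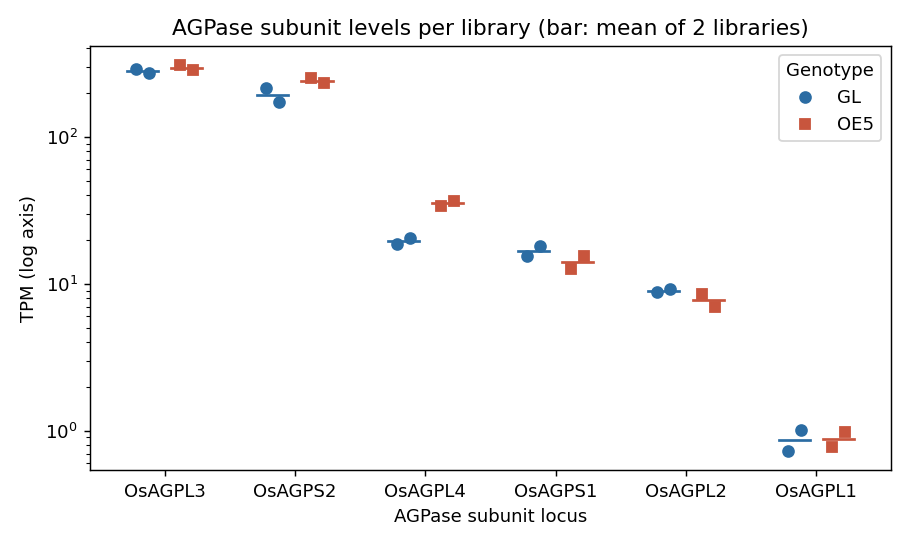
TPM of each AGPase locus on a log axis, with points for single libraries (circles for GL, squares for OE5) and horizontal bars for the means of 2 libraries. OsAGPL3 and OsAGPS2 lie between 171 and 307 TPM, the other 4 loci below 37 TPM, and the largest gap between genotypes is at OsAGPL4.

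OsAGPL3 had 288 and 271 TPM in the GL libraries and 307 and 284 TPM in the OE5 libraries. The genotypes overlapped in TPM. Their means were 279.6 ± 12.3 TPM for GL and 295 ± 16.7 TPM for OE5 (SD, n = 2 each). OsAGPS2 followed with 216 and 171 TPM in GL-1 and GL-2 and 249.6 and 234 TPM in OE5-1 and OE5-2. GL-2 was the lowest library for OsAGPS2 and the OE5 libraries were the highest. The gap between OsAGPL3 and OsAGPS2 was 1.95 times the sum of their SDs in GL and 1.93 times in OE5, and OsAGPL3 exceeded OsAGPS2 by 1.21-fold to 1.58-fold within each library.

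OsAGPL4 had 18.7 and 20.6 TPM in the GL libraries and 34.03 and 36.6 TPM in the OE5 libraries. OsAGPS1 had 15.5 and 18.0 TPM in GL and 12.5 and 15.4 TPM in OE5. In GL, the gap between these neighbours was only 0.954 times the sum of their SDs. Within the GL libraries OsAGPL4 was still the higher, by 1.21-fold and 1.15-fold. In OE5 the gap was 5.46 times the sum of the SDs, and the ratios were 2.72 and 2.37.

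OsAGPL2, the endosperm cytosolic large subunit, had 8.77 and 9.21 TPM in GL and 8.46 and 6.98 TPM in OE5. These levels were above those of the storage protein loci of the endosperm list, which reached at most 5.38 TPM. OsAGPL1 had 0.729 and 1.005 TPM in GL and 0.777 and 0.987 TPM in OE5, or 65, 92, 74 and 96 counts. It was the single member that did not reach a summed 2 TPM over the replicates of either genotype, and therefore was not among the 19280 genes tested. Its mean normalized counts were 86.2 ± 22.7 for GL and 78.0 ± 12.6 for OE5 (SD, n = 2 each). The genotypes overlapped.

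To ask which AGPase genes differ between OE5 and GL, counts were tested with edgeR's quasi-likelihood test, and a gene was called where it changed by more than 1.5-fold at an adjusted p below 0.05. Of the 5 AGPase loci tested, 1 was called, OsAGPL4, which was higher in OE5. Over all tested genes, 3.39% were called, 2.11% higher and 1.28% lower in OE5. The single call rests on reads that may belong to another locus. The neighbouring listed locus, LOC_Os07g13969, held almost the same counts in each library.

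OsAGPL4 had 2065 and 2334 counts in the GL libraries and 4009 and 4405 counts in the OE5 libraries. LOC_Os07g13969 had 2065, 2339, 4007 and 4391 counts in the same order. The loci thus differed by between 0 and 14 counts, or at most 0.318% of the counts of OsAGPL4. Such a match is rare. Of 9028 loci with at least 500 counts in every library, 12 (0.133%) had a next listed locus within 1% of their counts in every library.

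**Figure D2:**
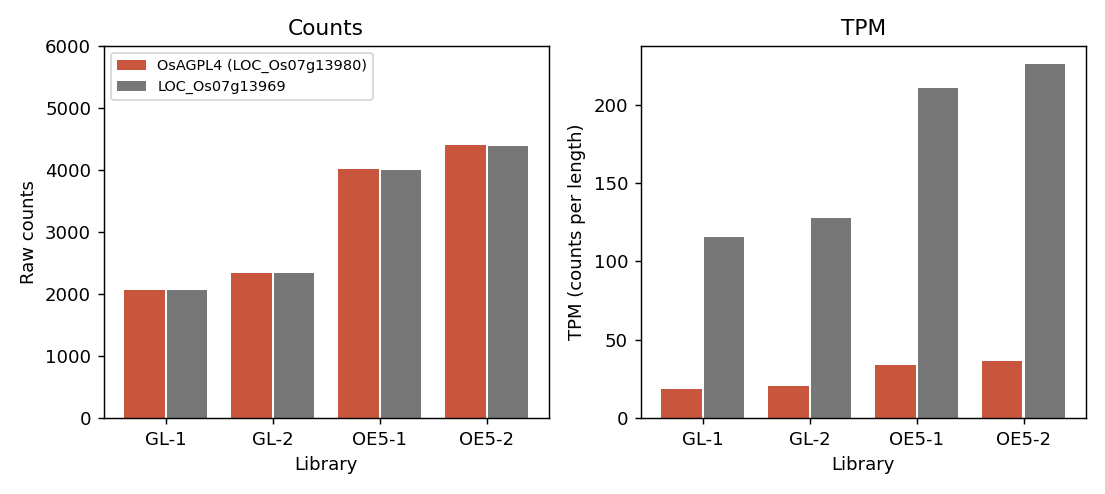
Raw counts (left) and TPM (right) of OsAGPL4 and of the neighbouring listed locus, LOC_Os07g13969, in each of the 4 libraries. The counts are equal to within 14, while the TPM of LOC_Os07g13969 is about 6.2 times that of OsAGPL4.

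By the ratio of count to TPM, the length used for LOC_Os07g13969 was 16.1% of that used for OsAGPL4, and its TPM was 6.17 to 6.21 times that of OsAGPL4. The files and the reference do not name LOC_Os07g13969, and coordinates of the loci were not used here. The methods do not state how reads over overlapping genes or on either strand were counted. Reads of OsAGPL4 and of LOC_Os07g13969 therefore cannot be told apart. The counts and the fold change given for OsAGPL4 fit either locus, while its TPM, rank and shares assume that the reads are its own. For the other 5 members, the nearest listed loci on either side differed from the member's own counts by 81.5% or more in at least 1 library.

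With that limit, the reads assigned to OsAGPL4 rose in OE5. Normalized counts were 2230 and 2594 in GL and 3746 and 3990 in OE5. Both OE5 libraries lay above both GL libraries, as in 22.2% of all tested genes (44.6% in either direction). The log2 fold change was 0.68 with a 95% interval of 0.41 to 0.95 (standard error 0.12, edgeR adjusted p = 0.0148), a 1.60-fold change. Between single libraries of OE5 and GL, the ratio ran from 1.44 to 1.79. Among the 407 genes called higher in OE5, 358 had a larger log2 fold change, so the rise was a modest one within that set. LOC_Os07g13969 had the same log2 fold change to 2 decimals (edgeR adjusted p = 0.0151). Without OE5-1 or without OE5-2 the call at OsAGPL4 was lost, with log2 fold changes of 0.73 and 0.63. In those fits the lone OE5 library is assumed to vary like the others. In alternative fits with 2 libraries in each genotype, the adjusted p ran from 1.76e-06 (edgeR, no filter) to 0.0235 (limma-trend). As OsAGPL4 was the only member called, leaving it out leaves 0 AGPase loci called by construction.

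The leaf-type large subunit did not pass the test. OsAGPL3 had 26481 and 26277 normalized counts in GL and 26074 and 23816 in OE5. On this scale both OE5 values lay below both GL values, as in 22.5% of all tested genes (44.6% in either direction). The log2 fold change was -0.08 with a standard error of 0.13 (edgeR adjusted p = 0.853). Its 95% interval, from -0.36 to 0.20, leaves room for folds from 0.777 to 1.15. On the TPM scale, OE5 stood 0.15 higher in log2 units relative to GL than on the TMM scale, for every gene alike. limma-trend on log2(TPM + 1) thus gave OsAGPL3 a log2 difference of 0.08 (adjusted p = 0.755, with a range of 0.752 to 0.9997 over 14 alternative fits), but the median of all tested genes was then 0.14. Relative to that median OsAGPL3 stood at -0.06, against -0.07 by edgeR. Its log2 fold change was -0.02 without OE5-2 and -0.15 without OE5-1.

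The major small subunit gene did not pass either. OsAGPS2 had 24311 and 20342 normalized counts in GL and 25908 and 23994 in OE5, and the groups overlapped. Its log2 fold change was 0.16 with a 95% interval of -0.15 to 0.47 (standard error 0.14, edgeR adjusted p = 0.689), or folds from 0.901 to 1.39. The GL replicates alone differed by 1.20-fold, and the log2 fold change was 0.04 without GL-2 and 0.30 without GL-1. TPM values of OsAGPS2 did not overlap between genotypes, as in 53.7% of all tested genes, with 45% higher and 8.63% lower in OE5.

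Of the 3 endosperm-type loci, OsAGPL1 overlapped between genotypes, and OsAGPL2 and OsAGPS1 had lower values in OE5 that did not pass the test. For OsAGPL2, normalized counts were 1299 and 1440 in GL and 1158 and 946 in OE5, so all OE5 values lay below all GL values. Normalized counts did not overlap for 44.6% of all tested genes, with 22.2% higher and 22.5% lower in OE5. Its log2 fold change was -0.38 with a 95% interval of -0.67 to -0.09 (standard error 0.13, edgeR adjusted p = 0.180, unadjusted 0.0158). For OsAGPS1, normalized counts were 1213 and 1485 in GL and 905 and 1105 in OE5, again without overlap. Its log2 fold change was -0.42 with a 95% interval of -0.74 to -0.10 (standard error 0.14, edgeR adjusted p = 0.173, unadjusted 0.0147). Without GL-1, the log2 fold changes were -0.44 for OsAGPL2 and -0.55 for OsAGPS1, still under the fold limit. That fit has a single GL library and cannot measure the spread of GL, so its p-values are not given. OsAGPL2 had -0.24 without OE5-2 and -0.20 with limma-trend on log2(TPM + 1), and OsAGPS1 had -0.26 without GL-2. In alternative fits with 2 libraries in each genotype, the adjusted p of OsAGPL2 ran from 0.0644 (edgeR, no filter) to 0.443 (limma-trend). That of OsAGPS1 ran from 0.0278 (edgeR, no filter) to 0.388 (limma-trend), with the former at a log2 fold change of -0.41, under the fold limit. Replicates of OsAGPS1 differed by 1.22-fold within both genotypes.

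**Figure D3:**
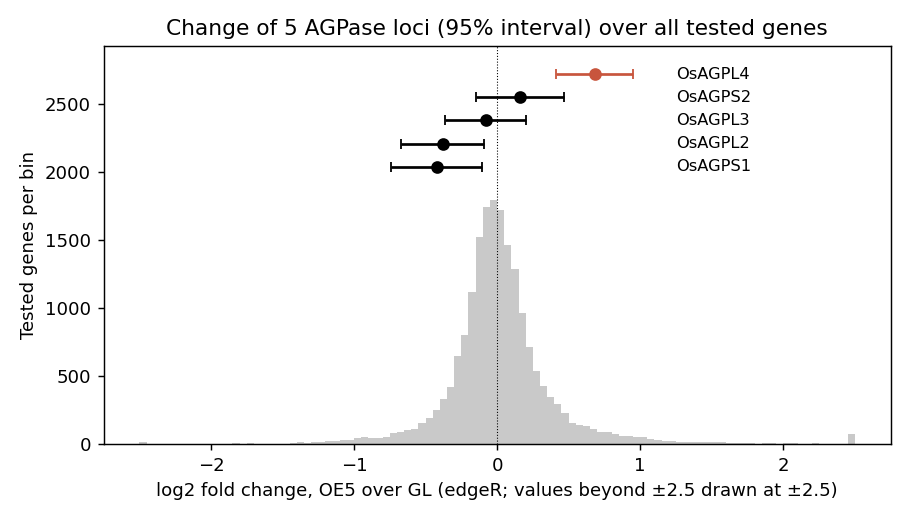
Histogram of the log2 fold change (OE5 over GL, edgeR) of the 19280 tested genes, with points and 95% intervals for the 5 AGPase loci tested drawn above it. OsAGPL4 lies at 0.68, while the intervals of OsAGPL3 and OsAGPS2 include 0 and OsAGPL2 and OsAGPS1 lie at -0.38 and -0.42.

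The make-up of the AGPase transcript pool was compared next, as the share of each locus in the summed TPM of its kind of subunit. OsAGPL3 held most of the large subunit TPM and OsAGPS2 most of the small subunit TPM in every library. With 2 libraries against 2, an exact permutation test cannot go below p = 0.333, and after adjustment over the 32 levels, shares and ratios compared, the smallest value was 0.410. This test therefore cannot call any of these comparisons, and they are given as values with their spread.

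OsAGPL3 made up 91.1% and 89.8% of the large subunit TPM in GL-1 and GL-2 and 87.7% and 86.4% in OE5-1 and OE5-2. The reads assigned to OsAGPL4 made up 5.91% and 6.83% in GL and 9.71% and 11.2% in OE5. Neither share overlapped between genotypes. The lower share of OsAGPL3 in OE5 rests on the reads assigned to OsAGPL4. Without OsAGPL4, OsAGPL3 made up 96.8% and 96.4% in GL and 97.1% and 97.3% in OE5, and the order of the genotypes turned.

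**Figure D4:**
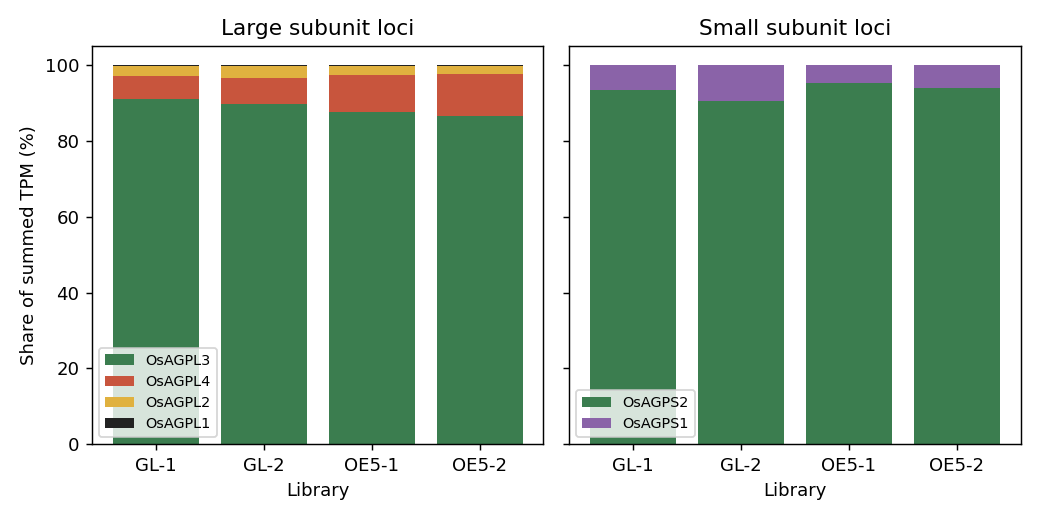
Stacked bars of the share (%) of each locus in the summed TPM of the 4 large subunit loci (left) and the 2 small subunit loci (right), per library. OsAGPL3 stays above 86% and OsAGPS2 above 90%, and the OsAGPL4 band is wider in both OE5 libraries.

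Among the small subunits, OsAGPS2 made up 93.3% and 90.5% in GL and 95.2% and 93.8% in OE5. The means were 91.9 ± 1.98% for GL and 94.5 ± 1.01% for OE5 (SD, n = 2 each). The difference of 2.59 percentage points compares with a pooled SD of 1.57, and was 1.19 without GL-2 and 3.99 without GL-1. GL-2 had the highest share of OsAGPS1, 9.48%, and OE5-1 the lowest, 4.77%.

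Leaf-type and endosperm-type large subunits were compared within each library, as the TPM of OsAGPL3 over the sum of OsAGPL1 and OsAGPL2. The ratio was 30.3 and 26.5 in the GL libraries and 33.3 and 35.6 in the OE5 libraries. The leaf type thus prevailed in every library, and the genotypes did not overlap. The mean log2 difference between genotypes was 0.28 against a pooled SD of 0.11 (exact permutation p = 0.333), and 0.18 without GL-2. With OsAGPL3 over OsAGPL2 alone, the ratios were 32.9 and 29.4 in GL and 36.3 and 40.6 in OE5.

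The summed TPM of all 6 loci was 548 and 491 in the GL libraries and 613 and 577 in the OE5 libraries. The OE5 libraries were the highest on this scale, by a mean log2 difference of 0.20 with a pooled SD of 0.09, or 0.12 without GL-2. The gap depended on the scaling. With TPM divided by the TMM factor, the sums were 554 and 538 in GL and 588 and 544 in OE5, and they overlapped, with a log2 difference of 0.05. The ratio of large to small subunit TPM does not depend on the scaling. It was 1.36 and 1.59 in the GL libraries and 1.34 and 1.32 in the OE5 libraries, so GL-2 stood apart from the other 3 libraries. Without GL-2, the log2 difference between OE5 and GL shrank from -0.15 to -0.04, and without GL-1 it was -0.26.

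The other steps of starch synthesis were taken from a list of 26 loci compiled from general knowledge of the rice pathway, since the files do not pair identifiers with names. Of these, 24 were in the table and 21 were tested. None was called higher in OE5 and 1 was called lower by edgeR, where 2.11% and 1.28% of all tested genes were, so the count is near the background. By DESeq2 the counts were the same. Their median log2 fold change was -0.15, against -0.0059 over all tested genes, and 15 of the 21 were negative, against 51.1% of all tested genes. The lean depends on GL-2, since the median was 0.0078 without it and -0.24 without GL-1. Other lists leaned the same way: the 13 leaf photosynthesis loci had a median of -0.25, with 11 negative, and the 3 tested endosperm storage loci one of -0.18.

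The locus called lower, LOC_Os07g22930, was listed among the starch synthases. It had 46580 and 55734 counts in GL and 35286 and 32327 in OE5, and fell by 0.85 on the log2 scale (standard error 0.15, edgeR adjusted p = 0.0161). It was one of the most abundant loci of the list, with a mean of 312 TPM. Without OE5-1 or OE5-2, or with limma-trend, no locus of the list was called lower, without GL-1 5 were called lower, and without GL-2 1 was called higher. Only LOC_Os01g52250, also listed among the synthases, had a higher mean TPM, 424. Its counts lay within 1.33% of those of its listed neighbour LOC_Os01g52240, one of the listed leaf photosynthesis loci, so its level is uncertain in the same way as that of OsAGPL4. The median of the remaining 20 loci was -0.17.

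By group, 0 of 2 branching enzyme loci, 0 of 3 debranching enzyme loci, 0 of 2 phosphorylase loci and 0 of 6 loci for hexose phosphate supply and transport were called, beside 1 of 8 starch synthase loci. The widest log2 fold change among the loci not called was -1.25 at LOC_Os07g34006, where GL-2 with 432 counts stood far from GL-1 with 93 and from OE5 with 98 and 165.

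**Figure D5:**
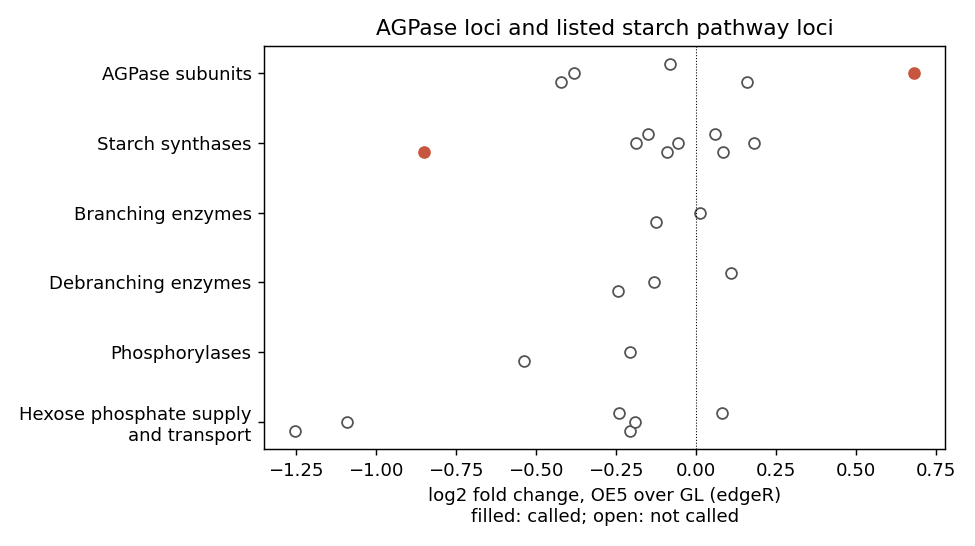
log2 fold change (OE5 over GL, edgeR) of the 5 tested AGPase loci and of the 21 tested loci of the starch list by group, with filled points for called loci. One starch synthase locus at -0.85 and OsAGPL4 at 0.68 are the called points, and the low values at -1.09 and -1.25 in the supply group were not called.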

How the data were processed

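RNA-seq libraries of GL and OE5 (2 each) were analysed. The bisulfite libraries of both genotypes were not analysed here. The authors trimmed reads with fastp 0.20.1, mapped them to Nipponbare (MSU v7.0) with HISAT2 2.1.0, and used TPMCalculator. The deposited counts are raw reads per locus. The deposited TPM values are those counts over gene length, scaled to a fixed sum per library. The methods call the replicates biological. If they are not from separate plants, p-values measure technical spread.

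Genes with a summed TPM of at least 2 over the replicates of GL or of OE5 entered the test of edgeR 4.0.16 under R 4.3.3 (TMM, robust estimateDisp and glmQLFit, prior count 2, Benjamini-Hochberg adjustment). Standard errors were taken as |log2 fold change| divided by the root of the F statistic. Normalized counts are counts over the relative effective library size. DESeq2 1.42.0 and limma 3.58.1 (pseudocounts 1 and 0.1) were alternatives. Permutation tests were exact and two-sided.

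All 6 members are named. List loci are named where called or among the 2 highest by TPM, and other loci were chosen after their values were seen. Members and lists were chosen with earlier results of these data known. No locus identifier and 1 member name (OsAGPS2) matched the RefSeq table, and no sequences were used.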

Additional observations from a re-analysis of the deposited data

How the results depend on the processing

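The call at OsAGPL4 held in 12 of 14 alternative fits, with log2 fold changes from 0.59 to 0.84, all positive. It was lost (0 members called) without either OE5 library, where the lone library is assumed to vary like the others, and, beside those fits, with a fold limit of 2. Leaving out each library in turn gave 0 to 1 members called and 0.59 to 0.80 for OsAGPL4. OsAGPL2, OsAGPL3, OsAGPS1 and OsAGPS2 were called in 0 of 14 fits each. OsAGPL3 changed direction with limma-trend, to 0.079 at both pseudocounts (0.0790 and 0.0793), on a scale that moved the median of all genes to 0.14 and 0.16. OsAGPL1, tested without a filter or with filterByExpr, had -0.13 and -0.14 (adjusted p = 0.906 and 0.898 from edgeR).

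The replicate numbers are not said to mark a shared batch, and across genes the deviations of libraries with one number correlated at 0.121 (Pearson) and -0.123 (Spearman). With the replicate block, OsAGPL4 had a log2 fold change of 0.68 (adjusted p = 0.0215 from edgeR), 708 genes were called against 653, and 1 member and 1 locus of the starch list were called, as without it.

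Over all genes, 653 were called, 407 higher and 246 lower. Without a filter these were 1207, 776 and 431, and with a fold over 2 they were 344, 249 and 95. limma-trend called 98 and 93 lower at pseudocounts of 1 and 0.1. Without each library in turn, 194 to 1270 were called, 142 to 761 higher and 52 to 509 lower. In the starch list, 0 were called lower with limma-trend or a fold over 2, and 0 to 5 lower and 0 to 1 higher without each library. Its median was 0.016 with limma-trend at both pseudocounts (all genes 0.14 and 0.16, so -0.12 and -0.14 relative to them), and -0.24 to 0.0078 without each library. Divided by the TMM factor, the summed AGPase difference was 0.051, and that of the large subunits -0.011. Leaving out OsAGPL4 was chosen after seeing the data, and left 0 members called by construction, since it was the only one called. The large subunits then had a difference of 0.071, and the share of OsAGPL3 one of 0.59 percentage points, where it was -3.40. Halved counts, added because both mates of a pair appear to have been counted, left 1 member called.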
